A study of Mus musculus with 12 samples.

Results

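The comparison described here sets cells given the microRNA cluster C retrovirus with SKO against cells given a blank control virus with SKO. It was made on day 4 and again on day 8, so it rests on 4 of the 12 arrays of the study, 2 with cluster C and 2 with blank virus, paired by day. The 4 arrays were picked by their sample titles. All cells were mouse embryonic fibroblasts, labelled as coming from a cross of OG2 (a line that usually carries a green fluorescent reporter driven by Oct4) with 129/sv. SKO is not spelled out in the labels and is taken to be the reprogramming factors Sox2, Klf4 and Oct4, which were delivered with the microRNA virus or the blank virus. Days count from the first of the infections, and the cells grew in mouse embryonic stem cell medium. Feeder cells were taken out before RNA extraction, per the labels' protocols, and no step is described that would separate reprogrammed cells from the rest. A second label field names another day, the same for all arrays, so the day was taken from the titles. The other 8 arrays hold cluster B with SKO and the blank, cluster B and cluster C viruses without SKO, each on both days, and serve here for the spread and as points of reference. Each condition and day has 1 array, and nothing says that the cultures of day 4 and day 8 came from separate experiments, so every p-value below measures only the spread between these arrays.

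Fibroblasts that receive reprogramming factors first lose parts of their mesenchymal programme and take on epithelial features, and later switch on their own pluripotency genes. The microRNAs of the Mir302 and Mir367 cluster are abundant in embryonic stem cells, are absent from most fibroblasts, and are known to raise the yield of reprogramming. The AAGUGC seed shared by the Mir302 members, though not by Mir367, pairs with sites in messenger RNAs of cell cycle inhibitors, of chromatin regulators and of the TGF-beta receptor, which sustains the mesenchymal state.

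Labels give the delivered microRNAs only as cluster C. The 5 probe sets of the Mir302 and Mir367 locus had the 5 largest mean effects of the comparison, so mature sequences of that locus are shown. The 5 hairpins lie within 580 bases on chromosome 3 of mouse, at chr3:127545228-127545807 on the plus strand of GRCm38.p6, in RefSeq's table. That table holds 9 mature sequences of the locus and lacks the 3′ arm of Mir302a. The 5 mature sequences below come from it, run 5′ to 3′, and carry the seed (bases 2 to 8) in capitals.
mmu-miR-302b-3p: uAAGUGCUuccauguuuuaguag
mmu-miR-302d-3p: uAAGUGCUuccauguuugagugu
mmu-miR-302c-3p: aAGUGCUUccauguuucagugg
mmu-miR-367-3p: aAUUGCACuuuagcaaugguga
mmu-miR-302b-5p: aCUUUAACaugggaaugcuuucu
The first 2 sequences share one seed. In the table mmu-miR-302c-3p begins 1 base later, so that the same AAGUGC stretch starts at its base 1 instead of base 2. The 3′ arm of Mir367 has another seed, and the 5′ arm shown for Mir302b has a seed that the 5′ arms of Mir302c and Mir302d share. The array values do not separate a hairpin transcript from its mature products. Whether they read delivered transcript, the cells' own or both was not tested.

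Every level below is a log2 value after RMA (the authors' normalization, which brings the arrays to a common distribution), so a difference of 1 is a doubling. Paired levels give blank virus first and cluster C second, and paired differences (cluster C minus blank virus) give day 4 first and day 8 second. Mir302b read 1.51 with blank virus and 7.08 with cluster C on day 4, and 1.77 and 7.15 on day 8. Mir302a read 1.68 and 5.11 on day 4, and 2.02 and 6.19 on day 8. For Mir367 the values were 1.31 and 4.01 on day 4, and 1.69 and 4.81 on day 8. Cluster C arrays were far above the blank arrays on both days, with no overlap. Cluster C exceeded blank virus by 3.78 on day 4 and 3.75 on day 8 for Mir302c, and by 3.95 and 3.54 for Mir302d. The blank values lie under the lower quartile of every array (3.48 to 3.68), where the scale flattens, so these differences are best read as lower bounds.

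**Figure D1:**
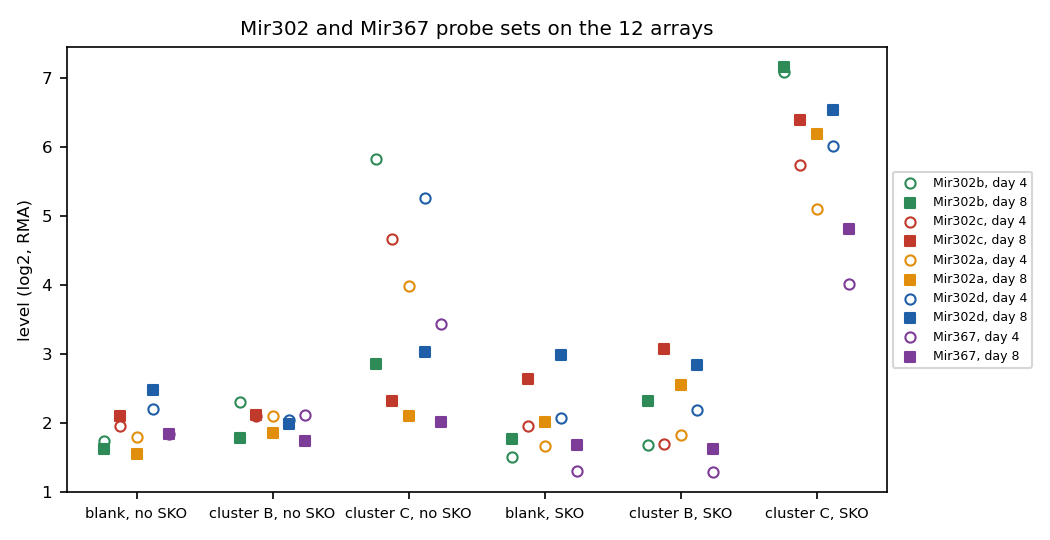
Log2 RMA levels of the 5 Mir302 and Mir367 probe sets (colours) on the 12 arrays, grouped by virus and SKO on the horizontal axis, with day 4 as open circles and day 8 as filled squares, 1 array per point. With SKO, cluster C stood above the other viruses on both days, from 4.01 for Mir367 on day 4 to 7.15 for Mir302b on day 8.

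A limma fit over all 12 arrays gave 1 cluster C effect with SKO per gene, averaged over the days, for 19938 genes. At a Benjamini-Hochberg adjusted p under 0.05, 4 genes passed, which is 0.0201% of the genes tested, 3 higher and 1 lower. Mir302b rose by an effect of 5.48 ± 0.54 (SE, 2 arrays against 2, adjusted p = 0.0213). Mir302a rose by 3.80 ± 0.36 and Mir367 by 2.91 ± 0.28, both with an adjusted p of 0.0213. Mir302c (3.76 ± 0.50, adjusted p = 0.0967) and Mir302d (3.75 ± 0.47, adjusted p = 0.0799) did not pass, although their single-day differences were of similar size to those of Mir302a. The only gene that fell was the olfactory receptor gene Olfr354 (-1.18 ± 0.13, adjusted p = 0.0346). It read 3.40 with blank virus and 2.07 with cluster C on day 4, and 4.04 and 3.01 on day 8. The 2 blank arrays with SKO were the highest of all 12 for Olfr354, cluster B with SKO read 1.79 and 2.55, and most of these values lie under the lower quartile. The number of calls hung on single arrays: it was 0 when the day 4 or day 8 blank array with SKO, either cluster B array with or without SKO, or the day 8 cluster C array with SKO was left out, and 18 without the day 4 cluster C array with SKO. Olfr354 did not pass with the 4 arrays alone (adjusted p = 0.23) or the 6 SKO arrays alone (0.17), whereas Mir302c and Mir302d passed in both of these fits and with equal array medians. Leaving out a cluster C array with SKO leaves the single-day effect of the other day, given further on, so those counts are no separate check. The unadjusted p of the averaged effect was under 0.05 for 1359 genes.

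Across genes, the day 4 and day 8 differences between cluster C and blank virus tended to point the same way, more so among genes of higher level. Over all 19938 genes, which include the 5 microRNA probe sets, Pearson's r between the days was 0.13 and Spearman's rho 0.09. Over the 9969 genes above the median gene level, which do not include them, both were 0.19. These are descriptions across genes of 4 arrays, no array enters both days, and genes are not independent replicates. Among the brighter genes 57.0% had the same sign on both days. Without SKO, cluster C against blank virus gave an r of 0.02 and the same sign for 48.8% of the brighter genes. Cluster B against the same blank arrays with SKO gave an r of -0.03 and the same sign for 49.8%.

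At least a 1.5-fold difference in the same direction on both days was met by 48 genes higher with cluster C (0.241% of genes tested) and by 17 lower (0.0853%). On day 4 alone 507 genes were at least 1.5-fold higher and 335 lower, and on day 8 427 were higher and 310 lower. So 9.47% of the genes higher on day 4 and 5.07% of those lower on day 4 met the same fold on day 8. A further 22 genes were higher on day 4 and lower on day 8, and 13 the reverse. Without SKO, the same rule found 14 genes higher on both days (0.0702%) and 26 lower (0.13%). Of the 48 genes higher with SKO, 5 were the microRNAs, 41 were protein-coding and 8 lay above the median gene level, so most recurring differences of this size were in dim genes. The 17 lower genes held 14 protein-coding genes and 3 above the median gene level.

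**Figure D2:**
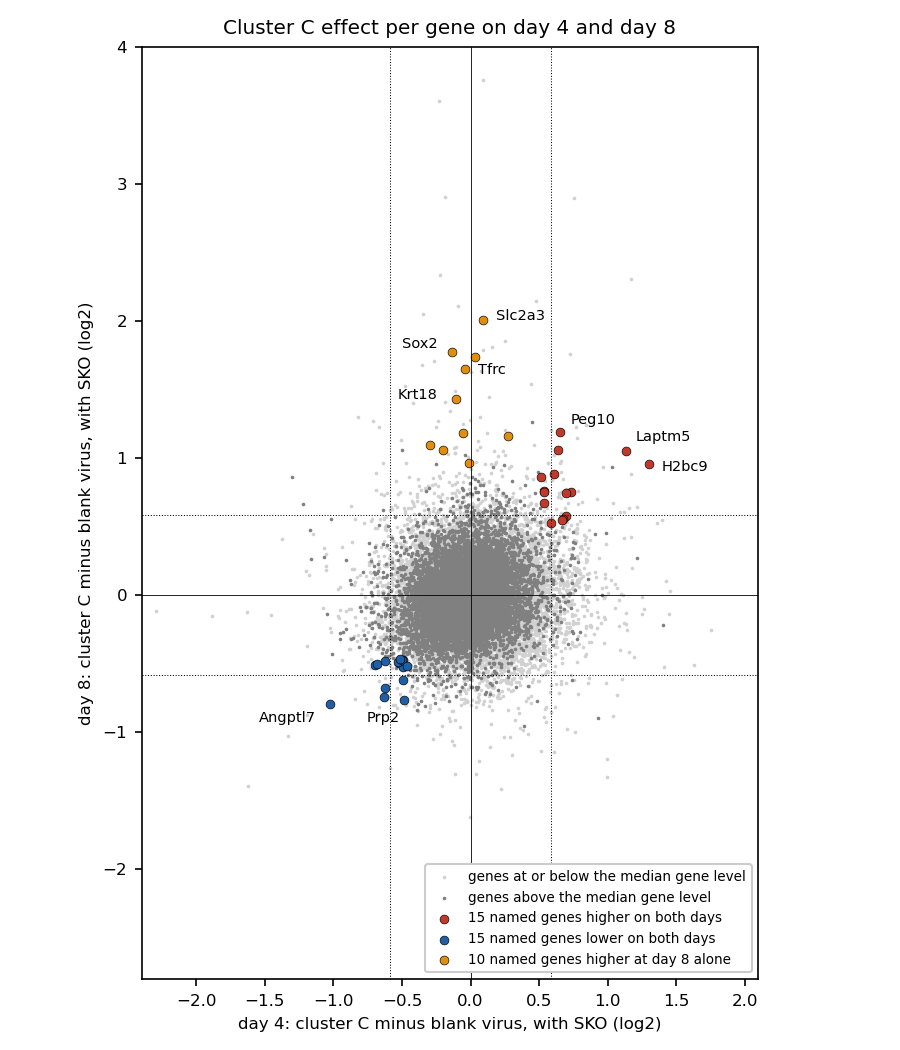
Cluster C minus blank virus with SKO (log2) on day 4 (horizontal) and day 8 (vertical), 1 point per gene, with dotted lines at 1.5-fold and the 5 microRNAs left out because they lie beyond the axes. The 15 named genes higher on both days and the 15 lower on both days sit in opposite corners, and the 10 named genes higher at day 8 alone form a column above 0 on the day 4 axis, up to 2.01 for Slc2a3.

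The genes named next were the 15 highest and 15 lowest by the smaller of their day 4 and day 8 differences, among named genes above the median gene level. They differed between cluster C and blank virus by the choice, so the differences describe them and are no test. None of the 30 passed the fit over all genes. Their adjusted p ran from 0.213 to 0.687 for the higher genes and from 0.0967 to 0.704 for the lower ones.

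Highest by that rule was Laptm5, a lysosomal membrane protein best known from blood cells. It read 6.37 with blank virus and 7.50 with cluster C on day 4, and 6.35 and 7.40 on day 8. Both cluster C arrays were thus above both blank arrays by about the same step, 1.13 and 1.05. Cluster B with SKO read 7.03 and 6.67, in between on each day, and the 6 arrays without SKO read 5.06 to 5.79. Its effect in the fit was 1.09 ± 0.17 (adjusted p = 0.213). Laptm5 was also 1 of the 8 leukocyte markers checked, and 4 of the 8 were below blank virus on both days. Ptprc, the pan-leukocyte surface marker, read 3.84 and 3.71 on day 4 and 3.86 and 4.00 on day 8, close to the lower quartile of the arrays, and the macrophage gene Lyz2 was lower with cluster C by 0.30 and 0.46.

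Histone genes made up 4 of the 15. The linker histone gene H1f1 read 9.14 with blank virus and 9.78 with cluster C on day 4, and 8.62 and 9.68 on day 8. H2bc3 read 6.53 and 7.22, then 6.61 and 7.36, and H2ac4 read 6.84 and 7.54, then 7.17 and 7.75. The fourth, H2bc9, was higher by 1.31 and 0.95. Cluster C was above blank virus on each day in all 4. Cluster B with SKO, set against the same blank arrays, was higher for H1f1 by 0.77 and 0.65 and for H2bc3 by 0.87 and 0.58, so both viruses lay above the shared blank arrays for these genes. For H2bc9 cluster B was higher by 0.82 on day 4 and lower by 0.65 on day 8. Without SKO, H2bc9 was higher with cluster C than with blank virus by 1.23 and 0.38. Over the 26 replication-dependent histone genes measured, a list drawn up after these values were seen, 20 were above blank virus on day 4, 14 on day 8 and 11 on both. Their median difference was 0.20 on day 4 and 0.04 on day 8, beside -0.00 and -0.02 for all genes. Cluster B, against the same blank arrays, had medians of 0.19 and -0.12 over these genes, so on day 4 it lay as far above them. None of the 26 passed the fit.

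Krt8, the type II keratin of simple epithelia, read 6.57 with blank virus and 7.18 with cluster C on day 4, and 7.94 and 8.82 on day 8. The gene for its partner keratin, Krt18, behaved otherwise on day 4, as given further on. Krt8 spanned 5.72 to 6.45 on the 6 arrays without SKO, below every array with SKO. Cluster B with SKO read 6.73 and 8.53, between blank virus and cluster C on both days. Krt8's effect was 0.75 ± 0.13 (adjusted p = 0.355). Cdh1, the adhesion protein E-cadherin of epithelial cells, showed the same order at a lower level: 5.05 with blank virus, 5.27 with cluster B and 5.72 with cluster C on day 4, and 6.34, 6.62 and 7.19 on day 8. Its range without SKO was 4.06 to 4.61, and its effect 0.76 ± 0.13 (adjusted p = 0.34).

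Peg10, a paternally expressed imprinted gene derived from a retrotransposon, read 6.02 and 6.67 on day 4 and 6.76 and 7.94 on day 8. Its step with cluster C was larger on day 8 (1.19) than on day 4 (0.65), and the difference between the days did not pass (adjusted p = 0.782). Zfp57, a zinc finger protein that keeps imprinted regions methylated, read 6.53 and 7.07 on day 4 and 7.04 and 7.71 on day 8. Cluster B with SKO read 6.94 for Zfp57 on day 4, nearer to cluster C, and 7.05 on day 8, next to blank virus.

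Several of the others serve mitochondria or metabolism. Pdhb, a subunit of pyruvate dehydrogenase, was higher by 0.67 and 0.55. Atpif1, the inhibitor of the mitochondrial ATP synthase, was higher by 0.59 and 0.53, and Akr1c18, a steroid-metabolising reductase, by 0.54 and 0.76. Akr1c18 was lower on day 8 than on day 4 in both arms, at 9.31 and 6.23 with blank virus and 9.84 and 6.99 with cluster C, and did not exceed 3.90 without SKO. Without SKO, Pdhb was lower with cluster C on day 4 by 0.67 and Atpif1 by 0.54. The remaining higher genes were Ormdl2 (0.73 and 0.76), which restrains sphingolipid synthesis, Nudt14 (0.67 and 0.55), Nfatc2ip (0.54 and 0.75) and Pmf1 (0.51 and 0.86), a part of the kinetochore.

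Some dimmer genes, which the rule left out, are named here after their values were seen. Fbxo15, a target gene of Oct4, read 4.44 with blank virus and 5.61 with cluster C on day 4, and 6.98 and 7.87 on day 8. Cluster B read 5.38 and 7.26, above blank virus on both days as well, and the arrays without SKO did not exceed 3.44. Tfap2c, a transcription factor of early embryos and germ cells, was higher by 0.77 and 1.22, and Polr3g, an RNA polymerase III subunit abundant in stem cells, by 0.69 and 0.64. The retinol-esterifying enzyme gene Lrat was higher by 0.78 and 1.15. Their adjusted p ran from 0.226 for Tfap2c to 0.579 for Polr3g, so none passed. Other dim genes rose on both days by similar steps, such as Smcp (0.96 and 0.93), Krtdap (0.70 and 0.77) and Nefl (1.09 and 0.61). Of the 39 pluripotency network genes measured, 18 were below blank virus on day 4.

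Angptl7, a secreted angiopoietin-like protein, led the lower genes. It read 6.09 with blank virus and 5.06 with cluster C on day 4, and 7.38 and 6.59 on day 8. The step was -1.03 on day 4 and -0.79 on day 8, and each arm read higher on day 8 than on day 4. Cluster B with SKO was lower than blank virus by 0.42 and 0.17. Its effect, -0.91 ± 0.12, had the lowest adjusted p of the 30 named genes (0.0967), and 0.0463 when only the genes above the median gene level were tested.

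Col11a1 encodes a chain of type XI collagen, which nucleates collagen fibrils. It read 8.05 with blank virus and 7.42 with cluster C on day 4, and 7.98 and 7.30 on day 8. Cluster C was the lowest of the SKO arrays on each day, cluster B lay between at 7.70 and 7.67, and all 6 arrays without SKO were above, at 8.48 to 8.66. The effect was -0.65 ± 0.11 (adjusted p = 0.34). Abi3bp, another matrix protein, read 5.98 and 5.49, then 5.29 and 4.67, and 7.80 to 9.11 without SKO.

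Secreted and receptor genes followed. Sfrp2, a secreted modulator of Wnt signalling, read 8.45 and 7.76 on day 4 and 8.72 and 8.22 on day 8, an effect of -0.59 ± 0.14 (adjusted p = 0.641). Angpt1, the ligand of the Tek receptor, read 6.93 and 6.40, then 7.38 and 6.90. For Unc5c, a netrin receptor, the values were 5.77 and 5.08 on day 4 and 5.57 and 5.06 on day 8, against 7.30 to 7.78 without SKO. In each of these 3 genes both cluster C arrays were below the blank array of their day. The neurotrophic ligand gene Nrtn was lower by 0.50 and 0.47, the protocadherin gene Pcdh9 by 0.47 and 0.52, and the lipid-sensing receptor gene Gpr132 by 0.49 and 0.76.

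Mical1, an enzyme that oxidises and takes apart actin filaments, read 6.68 and 6.06 on day 4 and 6.53 and 6.06 on day 8. The others were enzymes and regulators: Akr1b8 (lower by 0.49 and 0.52), an aldo-keto reductase, Hibch (0.49 and 0.47), of valine breakdown, Senp7 (0.51 and 0.46), which trims SUMO chains, and Pi15 (0.52 and 0.49), a peptidase inhibitor. Prp2, a proline-rich protein gene, was lower by 0.63 and 0.75, while cluster B was lower by 0.71 on day 4 and higher by 0.05 on day 8.

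**Figure D3:**
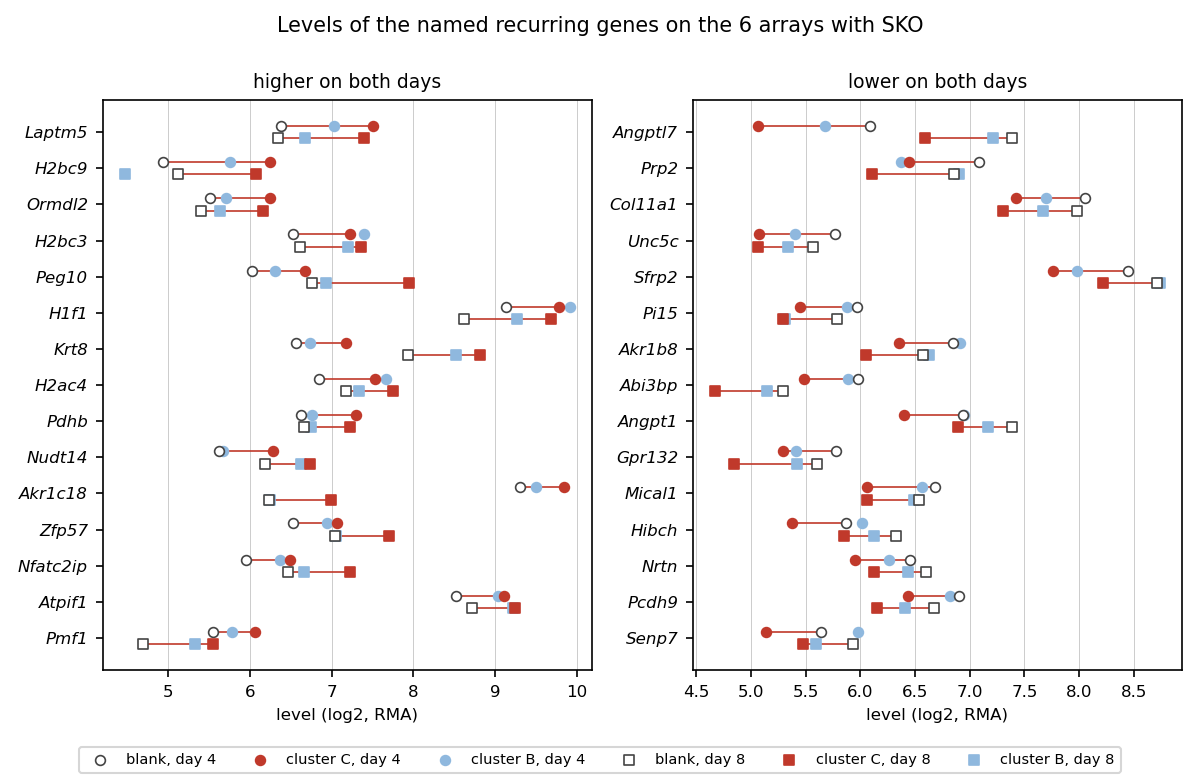
Log2 RMA levels of the 15 named genes higher on both days (left) and the 15 lower on both days (right) on the 6 arrays with SKO, with day 4 as circles and day 8 as squares, and a red line from blank virus (open) to cluster C (red) of the same day. Laptm5 moves from 6.37 to 7.50 and from 6.35 to 7.40, Col11a1 from 8.05 to 7.42 and from 7.98 to 7.30, and cluster B (blue) often lies in between.

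Cluster B shares its blank arrays with cluster C, so its differences are given only side by side. Over the 15 higher genes the median difference was 0.65 and 0.76 with cluster C and 0.41 and 0.22 with cluster B. Over the 15 lower genes it was -0.52 and -0.51 with cluster C and -0.12 and -0.19 with cluster B. How far the level of the shared blank arrays sets these values was not tested. The arrays outside the comparison gave another reference for these 30 genes. Their values did not enter the differences that ranked the genes. They did enter the level filter, which took the mean over all arrays, so this reference is not independent of the choice. The brighter genes given beside the 30 passed the same filter. Without SKO, cluster C was above blank virus on both days for 3 of the 15 higher genes and below on both days for 3 of the 15 lower ones, beside 2569 and 2298 of the 9969 brighter genes. The effects with and without SKO did not differ beyond the spread for any of the 30 (adjusted p of 0.759 or more for the difference), so no effect can be called particular to cells with SKO. On the cluster B arrays, 11 of the 15 higher genes were above their level without SKO on both days, beside 4089 of the 9969 brighter genes. In the same arrays, 11 of the 15 lower genes were below their level without SKO on both days, beside 3122. Members that were lower with cluster C thus lay mostly among the genes that were lower on the SKO arrays. Those arrays also differ in the group label from the arrays without SKO.

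On both days together, collagen genes were the most uniform of the lists examined, which were drawn up with earlier results of these data known. Of 20 fibrillar and associated collagen genes, all were below blank virus on day 4, 19 on day 8 and 19 on both days, against 28.9% of all genes and 32.5% of the brighter ones. Their median was -0.35 on day 4 and -0.26 on day 8, beside -0.00 and -0.02 for all genes. Cluster B, against the same blank arrays, had collagen medians of -0.29 and -0.06, so on day 4 it lay below them too. Without SKO the cluster C medians were -0.02 and 0.10. After Col11a1, the steadiest was the microfibrillar collagen gene Col6a1, at 9.87 with blank virus and 9.41 with cluster C on day 4 and 9.77 and 9.34 on day 8. Col7a1, the anchoring fibril collagen, was the exception on day 8 (-0.38, then 0.01), and Col5a3 was near 0 there (-0.15, then -0.00). None of the 20 passed the fit. In these bulk samples, fewer fibroblasts and less of a transcript per fibroblast cannot be told apart.

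Small leucine-rich proteoglycans, which decorate collagen fibrils, were below blank virus on both days for 8 of 12, with medians of -0.24 and -0.37. Fmod (fibromodulin, -0.62 and -0.41) and Bgn (biglycan, -0.42 and -0.40) were the steadiest. Kera (0.49, then -0.17) and Ecm2 (0.40, then -0.23) differed in sign between the days. Elastic fibre, adhesive and crosslinking genes were below on both days for 17 of 21 (medians -0.27 and -0.18), led by Loxl3, a lysyl oxidase (-0.45 and -0.41), and Fbln5, an elastic fibre organiser (-0.36 and -0.35). Loxl4 (-0.02 and 0.25) and Mfap4 (0.34 and -0.09) went otherwise. Matrix proteases and their inhibitors were below on both days for 12 of 18 (medians -0.18 and -0.23). Plat, tissue plasminogen activator, was lower by 0.45 and 0.33, whereas stromelysin Mmp3 was higher by 0.48 and 0.07.

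Cytoskeletal and mesenchymal genes were also mostly below blank virus. Of 28 actin cytoskeleton and smooth muscle genes, 23 were below blank virus on both days and none was above on both, with medians of -0.27 and -0.16. Without SKO 1 of the 28 was below on both days. Lmod1, an actin nucleator of smooth muscle, was lower by 0.63 and 0.44, and Ccn1, a matrix-associated target of mechanical signalling, by 0.33 and 0.38. Des, the muscle filament desmin, was -1.17 on day 4 and 0.48 on day 8. Of 26 mesenchymal regulators and surface genes, 20 were below on both days and none above on both (medians -0.17 and -0.20). The collagen receptor gene Ddr2 was lower by 0.39 and 0.32. S100a4, often used as a fibroblast marker, was -0.37 on day 4 and 0.59 on day 8.

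Signalling lists leaned down as well. Growth factor receptors and ligands were below on both days for 20 of 29 (medians -0.18 and -0.16). The receptor of platelet-derived growth factor Pdgfra read 7.99 with blank virus and 7.45 with cluster C on day 4, and 8.27 and 7.96 on day 8, and Pdgfrb was lower by 0.55 and 0.33. Both were lower with cluster B on day 4 too, by 0.44 for Pdgfra and 0.43 for Pdgfrb, against the same blank array, and by 0.06 and 0.07 on day 8. Igfbp2 (-0.20, then 0.47) did not follow. Wnt ligands, receptors and modulators were below on both days for 18 of 31 (medians -0.23 and -0.09), with Ccn4, a Wnt-induced matrix protein, lower by 0.36 and 0.42. TGF-beta and BMP pathway genes were below on both days for 24 of 40 (medians -0.06 and -0.14). Ltbp2, a latent TGF-beta binding protein of the matrix, was lower by 0.47 and 0.35, and Smad9, a BMP effector, by 1.19 and 0.37. Id2, a BMP target, was higher by 0.75 and 0.27.

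Of 26 reported targets of AAGUGC-seed microRNAs, the seed shown above for Mir302b and Mir302d, 16 were below blank virus on both days and 3 above, with medians of -0.09 and -0.18. Rbl2, a retinoblastoma relative that restrains the cell cycle, was lower by 0.36 and 0.43, and Ccnd2, a D-type cyclin, by 0.35 and 0.30. Without SKO 5 of the 26 were below on both days (medians -0.07 and 0.03). The nodal antagonist Lefty2 was -0.48 on day 4 and 1.52 on day 8. None of the 26 passed the fit. Target sites were not looked for in sequence here.

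**Figure D4:**
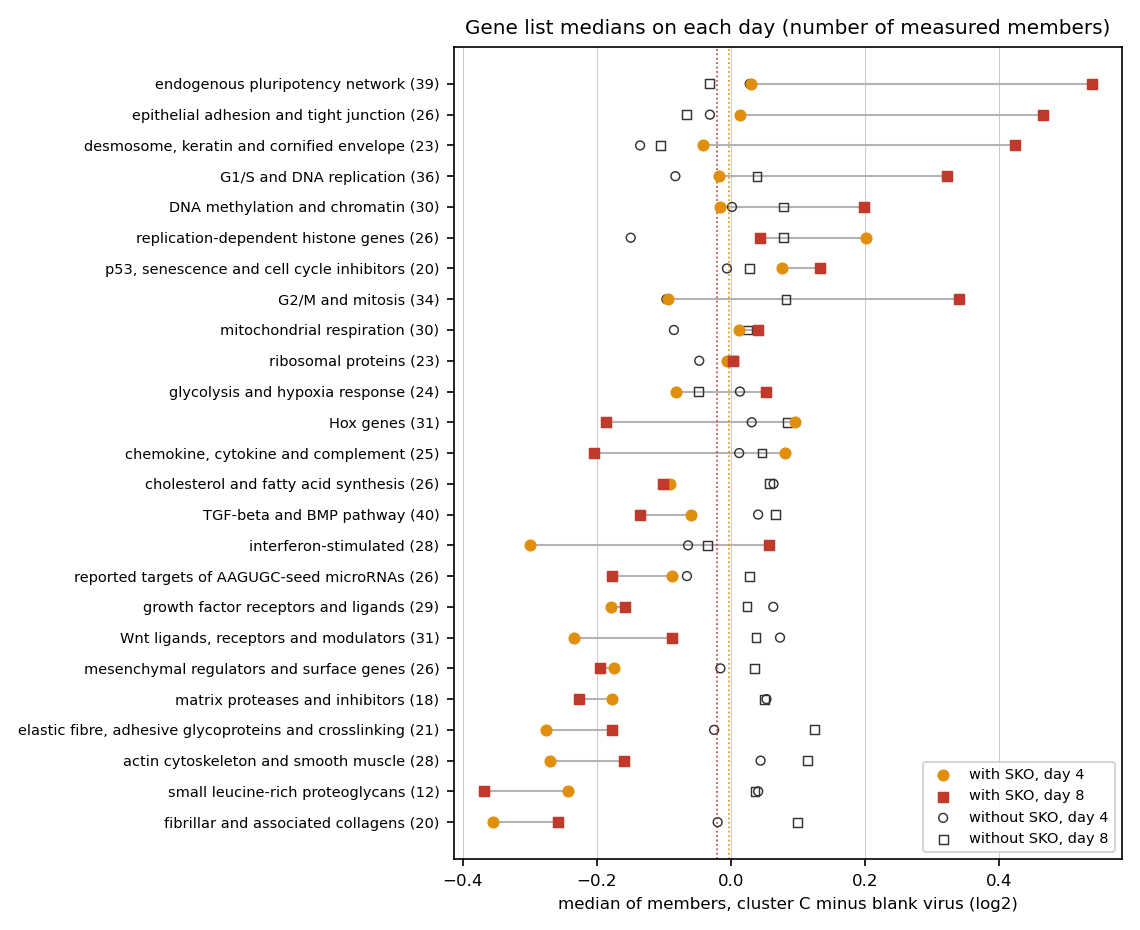
Median difference between cluster C and blank virus (log2) over the members of each gene list on day 4 (orange circles) and day 8 (red squares) with SKO, and without SKO (open symbols), with dotted lines at the medians of all genes. Collagens (-0.35 and -0.26) and proteoglycans (-0.24 and -0.37) lie left of 0 on both days, and the pluripotency (0.03 and 0.54) and epithelial (0.01 and 0.47) lists move right on day 8.

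Pluripotency genes differed mainly on day 8. Tests of a single day or of the difference between the days, here and below, rest on 1 cluster C array with SKO per day. Their errors and p-values carry no spread between such arrays, only that of the other conditions. In a fit with a separate effect at day 8, 18 genes passed (0.0903% of genes tested), 17 higher and 1 lower, and in the same fit no gene passed at day 4 (0%), with 1318 genes below 0.05 before adjustment. Among the 17, Mir302a, Mir367, Bex1, Car2 and Nr0b1 were at least 1.5-fold higher on day 4 as well, and the others were not. Nr0b1, a nuclear receptor of the pluripotency network, read 4.47 with blank virus and 5.22 with cluster C on day 4, and 4.45 and 7.35 on day 8. Bex1 read 3.05 and 4.23, then 3.59 and 5.90, and the carbonic anhydrase gene Car2 read 3.43 and 4.16, then 4.85 and 6.60. These 3 genes were higher on both days and by more on day 8. Cluster B, against the same day 4 blank array, was also higher for Bex1 (0.82) and Car2 (0.78), but not for Nr0b1 (-0.08). On day 8 cluster B differed from blank virus by -0.04, 0.31 and 0.09 in that order. The day 4 blank values of Bex1 and Car2 lie under the lower quartile of the arrays. With the day 8 blank array with SKO left out no gene passed, 1 passed without the day 4 blank array or either cluster B array with SKO, and 6 without either blank array that lacked SKO.

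Tdgf1, a co-receptor for Nodal, read 3.73 with blank virus and 3.82 with cluster C on day 4, and 5.61 and 9.37 on day 8. Dppa5a, an RNA-binding protein of pluripotent cells, read 3.53 and 3.30, then 6.61 and 10.22. Blank virus was itself higher on day 8 than on day 4 for both, and the cluster C array stood above all others there. Dppa2 (-0.34, then 2.05), Dnmt3l (0.16, then 1.81), which assists de novo DNA methylation, and Sall4 (0.04, then 1.74) passed at day 8 too. So did the oocyte and germline genes Ooep (0.13, then 1.45) and Tdrd12 (0.09, then 1.79), Fam169a (-0.09, then 2.11) and the predicted gene Gm6083 (-0.19, then 2.90). H2-Q5, a class I histocompatibility locus annotated as a transcribed pseudogene, was the one that fell, at -0.01 on day 4 and -1.62 on day 8.

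Among genes above the median gene level that lay within 0.3 of 0 on day 4, Slc2a3, a high-affinity glucose transporter, had the largest difference on day 8. It read 6.44 with blank virus and 6.53 with cluster C on day 4, and 7.18 and 9.19 on day 8, while cluster B read 7.26 there. Its day 8 effect was 1.94 ± 0.17 (adjusted p = 0.0192). Sox2 read 5.47 and 5.34, then 5.77 and 7.55 (day 8 effect 1.70 ± 0.18, adjusted p = 0.0293). The transferrin receptor gene Tfrc read 7.21 and 7.18, then 6.09 and 7.74 (1.66 ± 0.18, adjusted p = 0.0293). For Tfrc the day 8 blank array was lower than the day 4 one, and the cluster C arrays were not. Nanog, at 5.34 and 5.37, then 6.34 and 8.08, had a day 8 effect of 1.72 ± 0.33 and did not pass (adjusted p = 0.321).

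Krt18 read 4.84 with blank virus and 4.73 with cluster C on day 4, and 5.97 and 7.40 on day 8. The others of this group were Tet1, a DNA demethylase (-0.06, then 1.19), Mybl2, a cell cycle transcription factor (0.27, then 1.16), Rbpms2 (-0.30, then 1.10), Manbal (-0.20, then 1.06) and the chromatin remodeller Hells (-0.01, then 0.96). The adjusted p of the 10 at day 8 reached 0.603. No gene passed the test of the difference between the days (0% of genes tested, lowest adjusted p 0.101, unadjusted p under 0.05 for 1259 genes). With only the brighter genes tested, that difference passed for Slc2a3, Sox2 and Tfrc. Over all genes, it passed for Dppa5a with equal array medians (adjusted p = 0.0482), with the SKO arrays alone (0.0385) and with a trended, robust prior (2.7e-04), and for Dppa2, Fam169a and Gm6083 with equal array medians and with that prior. The calls thus differ between settings.

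Of the 10 brighter genes with the largest differences below blank virus at day 8 alone, Mgst1, a microsomal glutathione transferase, was lower by 0.79, at 8.98 against 8.20, and by 0.26 on day 4. Fgf7, a fibroblast-secreted growth factor for epithelia, was lower by 0.73 on day 8 and 0.27 on day 4, and 9.05 to 9.68 without SKO against 7.30 with cluster C on day 8. The others were Slc22a5, Chst2, Irf2, Cebpa, Paqr4, Pcolce2, Arsj and Ankrd49, lower by 0.69 to 0.77. None passed at day 8 (adjusted p 0.403 to 0.773).

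**Figure D5:**
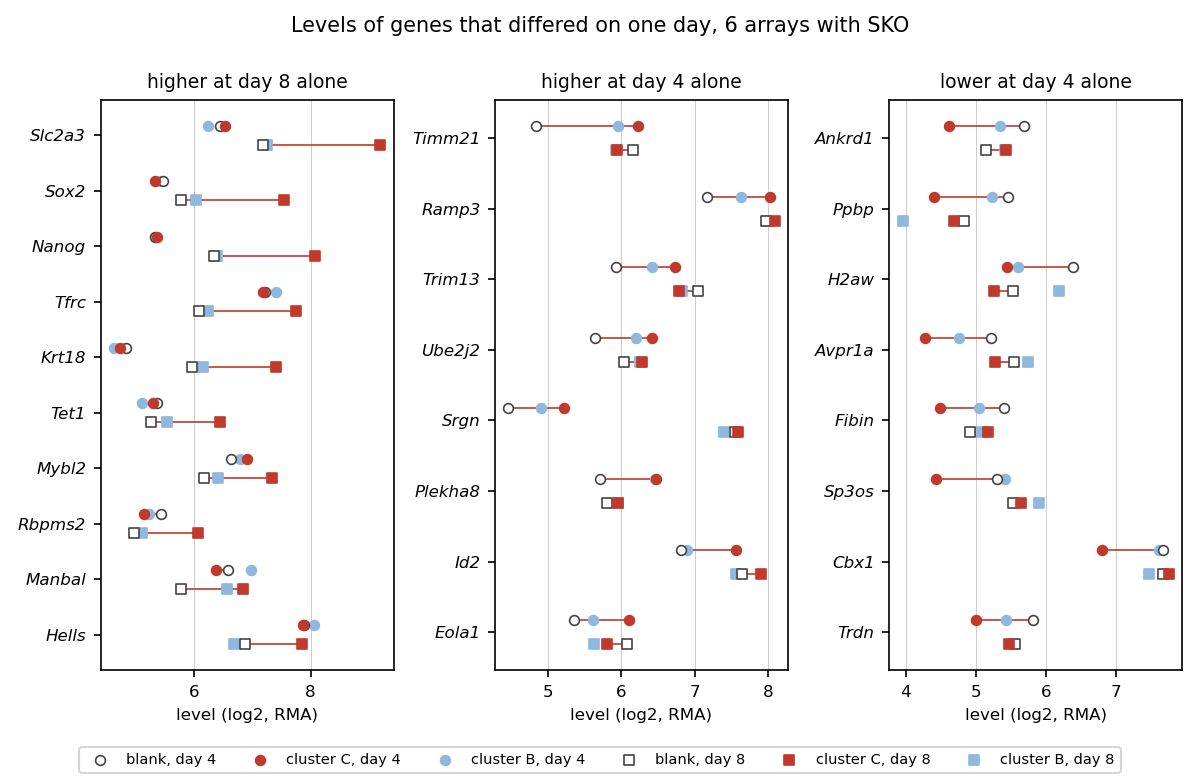
Log2 RMA levels of genes that differed on one day, on the 6 arrays with SKO, with day 4 as circles, day 8 as squares and a red line from blank virus (open) to cluster C (red) of the same day. Slc2a3, Sox2, Nanog and Tfrc show a long line on day 8 only, up to 9.19 for Slc2a3, and Timm21, Ramp3 and Ankrd1 on day 4 only.

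Lists showed the same split. The endogenous pluripotency network was above blank virus on both days for 20 of 39 (all genes 24.8%), with a median of 0.03 on day 4 and 0.54 on day 8. On day 8, 36 of 39 were above, beside 9226 of all 19938 genes. Of its members 6 passed at day 8, beside 0.0903% of all genes. Zfp42 went the other way on day 4 (-0.87, then 0.39). Epithelial adhesion and tight junction genes were above on both days for 13 of 26, with medians of 0.01 and 0.47 and 24 of 26 above on day 8. Besides Cdh1, Ovol1, an epithelial transcription factor, was higher by 0.60 and 0.43, whereas Spint1, a protease inhibitor of epithelia, was -0.31 on day 4 and 0.80 on day 8. Only 5 of the 26 lie above the median gene level, and over those the medians were -0.03 and 0.20, so the day 4 sign turned. Desmosome and keratin genes had medians of -0.04 (0.17 over the brighter members) and 0.42, with Sfn, an epithelial 14-3-3 protein, at 0.45 and 1.26 and Dsg2, a desmosomal cadherin, at -0.36 and 0.77.

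G2/M genes differed between the days in sign, while G1/S genes were near 0 on day 4. All 34 G2/M genes were above blank virus on day 8 (median 0.34), beside 9226 of all 19938 genes. On day 4, 25 of the 34 were below it (median -0.09), beside 10043 of all genes. G1/S genes were above on day 8 for 35 of 36 (median 0.32) and on day 4 for 17 (median -0.02, or 0.01 with equal array medians). Without SKO the cluster C medians also changed sign, at -0.10 and 0.08 for G2/M and -0.08 and 0.04 for G1/S. The median G2/M level was 7.82 on day 4 and 6.99 on day 8 with blank virus, and 7.68 and 7.39 with cluster C. Foxm1, which drives mitotic genes, was -0.46 on day 4 and 0.30 on day 8. Pole2, a subunit of DNA polymerase epsilon (0.39 and 0.66), and Aurka (0.29 and 0.49), a mitotic kinase, were above on both days. No member of either list passed at either day. DNA methylation and chromatin genes were above on day 8 for 26 of 30 (medians -0.02 and 0.20, the first 0.01 with equal array medians), and Wdr5 was higher on both days (0.26 and 0.31).

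The genes next named lay above the median gene level and differed on day 4, with a day 8 difference within 0.3 of 0. Timm21, of the mitochondrial import machinery, read 4.83 with blank virus and 6.23 with cluster C on day 4, and 6.16 and 5.94 on day 8. Cluster B read 5.95 on day 4 and the arrays without SKO 4.92 to 5.98, so the day 4 blank array was the lowest of all. Ramp3, a receptor chaperone, read 7.17 and 8.02 on day 4 and 7.97 and 8.09 on day 8, so that the day 4 blank array stood below the other 3. Cluster B read 7.63 for it on day 4. The others higher on day 4 were Trim13, Ube2j2, Srgn, Plekha8, Id2 and Eola1, by 0.74 to 0.80, but the probe sets of Eola1 averaged 0.33. Cluster B was above the same day 4 blank array for each of them, from 0.08 for Id2 to 0.75 for Plekha8. Without SKO, Id2 was higher with cluster C by 0.74 on day 4.

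Ankrd1, a target of mechanical and Yap signalling, had the largest difference below blank virus among those within 0.3 of 0 on day 8, at 5.69 and 4.62, then 5.15 and 5.43. The chemokine gene Ppbp was lower by 1.05 on day 4 and 0.14 on day 8, and Cbx1, a heterochromatin protein, read 7.66 and 6.79 on day 4 and 7.67 and 7.75 on day 8. For Cbx1 the day 4 cluster C array was the lowest of all 12. The remaining 5 were H2aw, Avpr1a, Fibin, Sp3os and Trdn, lower by 0.80 to 0.95, but the probe sets of Trdn averaged -0.14. None of these 16 genes passed at day 4 (adjusted p 0.523 to 0.88).

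Interferon-stimulated genes were below blank virus on day 4 for 22 of 28 (median -0.30) and above on day 8 for 16 (median 0.06). Ifit3, an antiviral protein, was lower by 1.01 on day 4 and 0.43 on day 8, and Ifit1 by 0.87 and 0.32. Cluster B, against the same blank arrays, had medians of -0.64 on day 4 and 0.30 on day 8, a larger shift than cluster C on both days. Hox genes (median 0.10 on day 4 and -0.19 on day 8) and chemokine, cytokine and complement genes (0.08, or -0.02 over the brighter members, and -0.20) also had unlike signs on the days. Single genes that crossed were these. Siah1a (0.93, then -0.89), Tgfa (0.74, then -0.62) and Clec3b (0.49, then -0.77) went from above to below, and Tomm5 (-1.30, then 0.86), Pate11 (-1.22, then 0.67) and Trmt10c (-0.64, then 0.62) from below to above. Their adjusted p for the difference between the days ran from 0.675 to 0.854.

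Other lists stayed near 0 or moved little. Genes of the p53 pathway and cell cycle inhibitors were above blank virus on both days for 13 of 20 (medians 0.08 and 0.13), among them Trp53inp1 (0.41 and 0.45) and Perp (0.74 and 0.39), while the inhibitor Cdkn2c was -0.11 and -0.65. Cholesterol and fatty acid synthesis genes were below on both days for 12 of 26 (medians -0.09 and -0.10). Glycolysis and hypoxia genes had medians of -0.08 and 0.05, mitochondrial respiration 0.01 and 0.04, and ribosomal protein genes -0.01 and 0.00, with signs that turned under other scalings. Of the delivered factors, Pou5f1 read 11.62 with blank virus and 11.93 with cluster C on day 4 and 11.63 and 11.60 on day 8, and Klf4 read 8.70 and 8.67, then 8.63 and 8.63. Both were high on every SKO array and did not separate the viruses. Sox2 was not high in that way: its probe set read 5.34 to 6.04 on the SKO arrays other than cluster C on day 8 (7.55), and 4.55 to 5.18 without SKO. Whether that probe set reads delivered transcript, the cells' own or both was not tested.

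Markers of the labelled cell type were present throughout. The 13 fibroblast markers had a median level of 8.57 with blank virus and 8.49 with cluster C on day 4, and 8.91 and 8.61 on day 8. Of the 13, 10 were below blank virus on both days, beside 28.9% of all genes and 32.5% of the brighter ones. Some of these markers, such as Pdgfrb and S100a4, are also members of lists described above, so this count is not separate from those. The 8 pluripotency markers had a median level of 4.35 with blank virus and 4.02 with cluster C on day 4, and of 4.62 and 6.66 on day 8. Medians of the leukocyte markers were 4.32, 4.33, 4.51 and 4.21 in that order, those of the endothelial markers 4.02, 4.03, 3.86 and 4.27, and those of the keratinocyte markers 5.01, 4.92, 5.28 and 5.50. Skeletal muscle markers had medians of 5.15, 4.68, 4.77 and 4.91, and neural markers of 5.17, 5.37, 4.98 and 4.97. The part of a changed mix of cells in the differences above was not tested.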

How the data were processed

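The 12 Affymetrix whole-transcript mouse arrays hold 1 sample per virus, SKO state and day. The deposited values are log2 signals that the authors made with RMA; the submitters' processing notes also name Partek, and the version of neither is known here. Of 28853 probe sets, 21789 were named by 1 gene in the platform annotation, 1621 by several and 5443 by none; the probe set with the highest mean was kept for each gene, leaving 19938 genes. Array medians lay between 4.978 and 5.067, and no 2 arrays were near identical (smallest mean absolute difference 0.167). limma 3.58.1 (R 4.3.3) fitted virus by SKO and day over all 12 arrays, with a second fit that separated the days, Benjamini-Hochberg adjustment over all genes and a threshold of 0.05; it was tested on simulated data. The number of arrays limits the precision. Genes were named as the 15 highest and 15 lowest on both days by the smaller difference, or the highest on 1 day with the other within 0.3 of 0, above the median gene level of 5.32; genes past the threshold, genes that crossed, and the most and least steady list members were named too. The comparison, its members and the 32 gene lists were chosen with earlier results of these data known, and the histone list was added later. Some genes, such as Pdgfrb, are in several lists. Alternatives changed scaling, probe sets, filter, fold, fit and arrays. Some genes are not reported here.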

Additional observations from a re-analysis of the deposited data

Results flagged for a closer look

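The Mir302 and Mir367 probe sets also stood out on the cluster C arrays without SKO, which the comparison does not use. On day 4 Mir302b read 5.82, Mir302d 5.25, Mir302c 4.66, Mir302a 3.99 and Mir367 3.43. Each was above the highest of the 8 arrays without cluster C, which were 2.32 for Mir302b, 2.98 for Mir302d, 3.08 for Mir302c, 2.55 for Mir302a and 2.13 for Mir367. On day 8 Mir302b (2.86) and Mir302d (3.03) were still above those arrays, by little for Mir302d, while Mir302c (2.32), Mir302a (2.11) and Mir367 (2.02) were not. The lower day 8 level without SKO rests on 1 array, and its cause was not tested.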

How the results depend on the processing

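The averaged cluster C effect had 4 calls, and this count became 1 with only genes above the median gene level (Angptl7), 7 with equal array medians, 2 with a minimum change of 1.5-fold, 0 without a day term and 14 with a trended, robust prior, and leaving out single arrays gave 0 to 18. The 14 held Laptm5, Krt8, Peg10, Angptl7 and Col11a1, which did not pass over all genes with the usual prior, and not Mir302b (adjusted p = 0.124). The 18 calls at day 8 became 5 among the brighter genes and 45 with the trended prior, and 0 to 14 without single arrays. At day 4 the count of 0 became 6 with the SKO arrays alone and 5 with the trended prior, and 0 to 5 without single arrays. For the difference between the days the count of 0 became 3 among the brighter genes, 5 with equal medians, 1 with the SKO arrays alone and 13 with the trended prior, and 0 to 1 without single arrays. The 48 genes higher on both days became 8 among the brighter genes, 92 over every probe set, 223 at 1.3-fold and 7 at 2-fold, and the 17 lower became 3, 26, 157 and 2. The cause of these changes was not tested, apart from the fewer genes or other fold that an alternative sets. Leaving out any of the 4 arrays gives no count for both days. No named gene effect turned its direction. Effects were counted once per gene and setting, for the recurring genes, the microRNAs and Olfr354. Of these results 691 kept their side of the threshold, 43 no longer passed and 16 newly passed. List medians were counted once per list, day and setting. Of these, 246 moved by less than the median residual SD (0.152) and 10 by more. There were 15 turns of sign, in 12 list medians, under another scaling, probe set rule or the brighter genes alone; apart from the endothelial markers at day 8 (0.39 to -0.18) these medians lay within 0.14 of 0. Viruses were paired by day in the fit, through its day term, and the 4 arrays alone, fitted with virus and day, gave 6 calls. Values under the array lower quartile (3.48 to 3.68) carry little information on size.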
